A study of Mus musculus with 10 samples.

Results

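The 8 genes described here, Fetub, Tph1, Themis3, Osbpl3, Katnal2, BC048679, Gm830 and Chrna2, were chosen from the 54232 genes of the table because their values in the 5 desmin knock-out mice did not overlap those in the 5 wild-type mice and because the differences were large. They have no well-known task in skeletal muscle. RNA was sequenced from gastrocnemius, a calf muscle, of mice at 3 months of age. The sample labels name this muscle alone, whereas the paper also names the adjoining plantaris. The knock-out mice were homozygous (Des -/-) and the controls were Des wt/wt littermates, both of the strain B6J.129Sv-Destm1Cba/Cscl, and no mouse received a treatment. The allele is present in all cells of the animal and not in muscle fibers alone, and the RNA came from whole muscle with its vessels, nerves and resident immune cells.

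Every value below is a regularized log (rlog) value, an expression value on the log2 scale that takes library size into account and pulls each value to its gene's mean, most strongly where reads are few. A difference of 1 is a 2-fold difference on this scale, and it is smaller than that of the counts behind it. Since counts were not used here, the depth of each library is unknown. Des itself lay between 11.76 and 11.89 in knock-out and between 16.10 and 17.74 in wild-type mice, and all 10 markers of skeletal muscle fibers that were looked at lay between 10.48 and 21.18. Of these, Myh2 was higher with a difference of 0.77, and Myh4 and Actn3 were lower with -0.71 and -0.97 (adjusted p = 0.0195, 0.036 and 0.0196, limma). The others did not pass an adjusted p of 0.05 (limma). The log2 of the summed level of all 10 markers was 22.06 to 22.29 in knock-out and 22.33 to 23.24 in wild-type mice. Of 8 markers of regenerating fibers 7 were higher in the knock-out (adjusted p under 0.05, limma), beside 7.7% of all 14289 tested genes. The largest differences were 2.25 in Myh3 and 1.93 in Mymk (adjusted p = 5.89e-06 and 2.11e-05, limma). Ncam1, with a difference of 0.57, did not pass (adjusted p = 0.0731, limma). The log2 of the summed level of the 8 was 11.14 to 11.89 in knock-out and 9.84 to 10.34 in wild-type mice. The part of either shift in the differences of the 8 genes was not tested. Y-linked transcripts were at least at 8.03 and Xist at most at 0.77 in all 10 mice. Wild-type mouse 3 stood apart, since its rlog values, taken off the log scale and summed over all genes, came to 1.48 times the median mouse, compared with 0.949 to 1.06 times in the others.

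The 8 genes belong to families that do quite different things. Fetub encodes fetuin-B, a protease inhibitor secreted by the liver that keeps an egg protease in check. Tph1 encodes the rate-limiting enzyme of serotonin synthesis outside the brain, known from the gut, the pineal gland and mast cells, and Chrna2 encodes a subunit of neuronal nicotinic acetylcholine receptors (AChRs), which are built like the AChR of muscle. Themis3 is a relative of Themis, a protein of T cell receptor signalling in thymocytes. Osbpl3 encodes a lipid-binding protein of the oxysterol-binding protein family that works where the endoplasmic reticulum touches the plasma membrane, and Katnal2 a catalytic subunit of katanin, an ATPase that severs microtubules. BC048679 and Gm830 bear only catalogue names. BC048679 is annotated as protein-coding and Gm830 as a processed transcript without a coding sequence.

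Of the set, the 4 genes Fetub, Gm830, Katnal2 and Osbpl3 were higher in desmin knock-out muscle, and the other 4, BC048679, Tph1, Themis3 and Chrna2, were lower. All 8 had a mean past the expression limit of log2(10) in both genotypes. The differences between knock-out and wild-type means ranged from -2.74 in BC048679 to 2.61 in Fetub, the smallest in size being -1.77 in Chrna2, whereas the median size of the difference over all 14289 tested genes was 0.17. Of these tested genes 14.4% had groups without overlap, 7.45% with higher and 6.97% with lower values in knock-out muscle, but the 8 were selected for that feature, so that it is no result about them. A total of 56 genes without overlap had a difference at least as large as that of Chrna2, 45 of them with higher and 11 with lower knock-out values, and the 8 genes are among them. By size, BC048679, Tph1 and Fetub stood at places 3, 4 and 5 of all genes without overlap, Themis3 at place 10, Gm830 at 22, Katnal2 at 39, Osbpl3 at 45 and Chrna2 at 56. The rule names no limit for a large difference, and the remaining 48 genes were not part of the set.

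**Figure D1:**
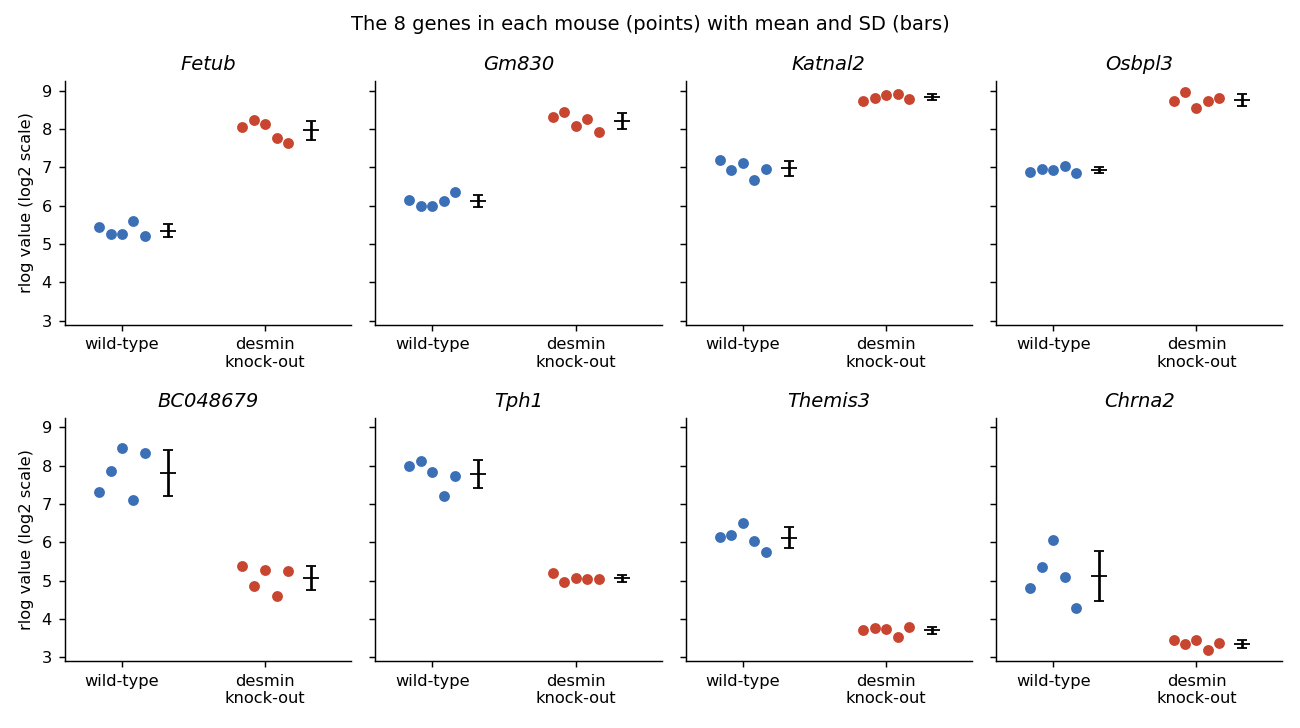
Values of the 8 genes in each mouse, with rlog values (log2 scale) on the vertical axis and the genotypes on the horizontal axis. Points are mice, and the bars beside them give the mean and SD of 5 mice. The upper row holds the genes that were higher and the lower row those that were lower in desmin knock-out mice, and the smallest gap between the groups is 0.85, in Chrna2.

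Fetub (ENSMUSG00000022871) lies on the forward strand of GRCm38 at chr16:22918334-22939778. In desmin knock-out mice 1 to 5 its values were 8.05, 8.22, 8.12, 7.77 and 7.64, and in wild-type mice 1 to 5 they were 5.44, 5.25, 5.26, 5.59 and 5.20. The knock-out mice lay together well above the wild-type mice, with an empty stretch of 2.05 between the groups. The means were 7.96 ± 0.25 (SD, n = 5) and 5.35 ± 0.16 (SD, n = 5), which is a difference of 2.61 or 6.12-fold on the rlog scale. With this, Fetub had the second largest positive difference of the genes without overlap.

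Gm830 (ENSMUSG00000084939, reverse strand, chr4:95464724-95487394) had 8.32, 8.44, 8.07, 8.26 and 7.91 in knock-out mice and 6.14, 5.98, 5.99, 6.13 and 6.35 in wild-type mice. Both groups were narrow, and the difference of the means of 8.20 ± 0.21 (SD, n = 5) and 6.12 ± 0.15 (SD, n = 5) was 2.08. Gm830 is the only one of the 8 genes that shares its place with another annotated gene. Gm12707, on the opposite strand, touches an exon of Gm830 and had a mean of -0.17 in knock-out and -0.26 in wild-type muscle, far below the expression limit.

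Katnal2 (ENSMUSG00000025420, reverse strand, chr18:76977148-77047308) had 8.73, 8.81, 8.89, 8.91 and 8.78 in knock-out mice. In wild-type mice it had 7.19, 6.94, 7.10, 6.66 and 6.95. The means were 8.82 ± 0.08 (SD, n = 5) and 6.97 ± 0.20 (SD, n = 5), so that Katnal2 was the only one of the 8 genes with the narrower spread in the genotype that had more of it. The difference was 1.86.

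Osbpl3 (ENSMUSG00000029822, reverse strand, chr6:50293330-50456201) had the steadiest wild-type values of the set. They were 6.87, 6.96, 6.92, 7.03 and 6.85, with a mean of 6.92 ± 0.07 (SD, n = 5), against 8.74, 8.96, 8.55, 8.73 and 8.80 in knock-out mice, with a mean of 8.76 ± 0.15 (SD, n = 5). The difference of 1.83 was 16 times the pooled SD, the largest such ratio among the 8 genes.

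BC048679 (ENSMUSG00000061877, reverse strand, chr7:81494275-81498281) is a short gene with 640 exonic bases. Its values were 5.37, 4.86, 5.27, 4.61 and 5.24 in knock-out mice and 7.31, 7.85, 8.47, 7.10 and 8.32 in wild-type mice. Wild-type mice differed among themselves more than in most of the other genes, and the lowest of them was 1.73 above the highest knock-out mouse. The means of 5.07 ± 0.32 (SD, n = 5) and 7.81 ± 0.60 (SD, n = 5) gave the largest difference of the set, -2.74, or 6.67-fold on the rlog scale. Without wild-type mouse 3, which had the highest value, it was -2.57.

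Tph1 (ENSMUSG00000040046, reverse strand, chr7:46644641-46672537) lies on the same chromosome as BC048679. Knock-out mice had 5.20, 4.95, 5.06, 5.05 and 5.04, and wild-type mice had 7.99, 8.13, 7.84, 7.20 and 7.74. All knock-out mice thus had nearly the same low value, with a mean of 5.06 ± 0.09 (SD, n = 5), while the wild-type mean was 7.78 ± 0.36 (SD, n = 5). The difference was -2.72.

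Themis3 (ENSMUSG00000024105, reverse strand, chr17:66554505-66594621) had 3.71, 3.75, 3.73, 3.53 and 3.78 in knock-out mice and 6.13, 6.19, 6.50, 6.04 and 5.75 in wild-type mice. The knock-out values sat close to the expression limit. The means were 3.70 ± 0.10 (SD, n = 5) and 6.12 ± 0.27 (SD, n = 5), and the difference was -2.42.

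Chrna2 (ENSMUSG00000022041, forward strand, chr14:66135039-66152948) had the smallest difference of the set. Its values were 3.44, 3.34, 3.44, 3.18 and 3.37 in knock-out mice and 4.80, 5.35, 6.07, 5.10 and 4.29 in wild-type mice. Wild-type mouse 3 was highest and wild-type mouse 5 lowest among the controls. By the choice of the genes, no control fell into the narrow band of the knock-out mice. With 3.35 ± 0.11 (SD, n = 5) and 5.12 ± 0.66 (SD, n = 5), the difference was -1.77, and it was -1.53 without wild-type mouse 3. The knock-out mean lay just above the expression limit, in a range in which rlog compresses differences most.

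In 7 of the 8 genes the spread between mice was larger in the genotype with the higher level, up to 6.29 times in Chrna2. Low rlog values are drawn together, so a narrow group at a low level does not show that these mice were more alike. None of the 8 genes lies on chromosome 1, where Des is, and they are spread over 7 chromosomes.

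**Figure D2:**
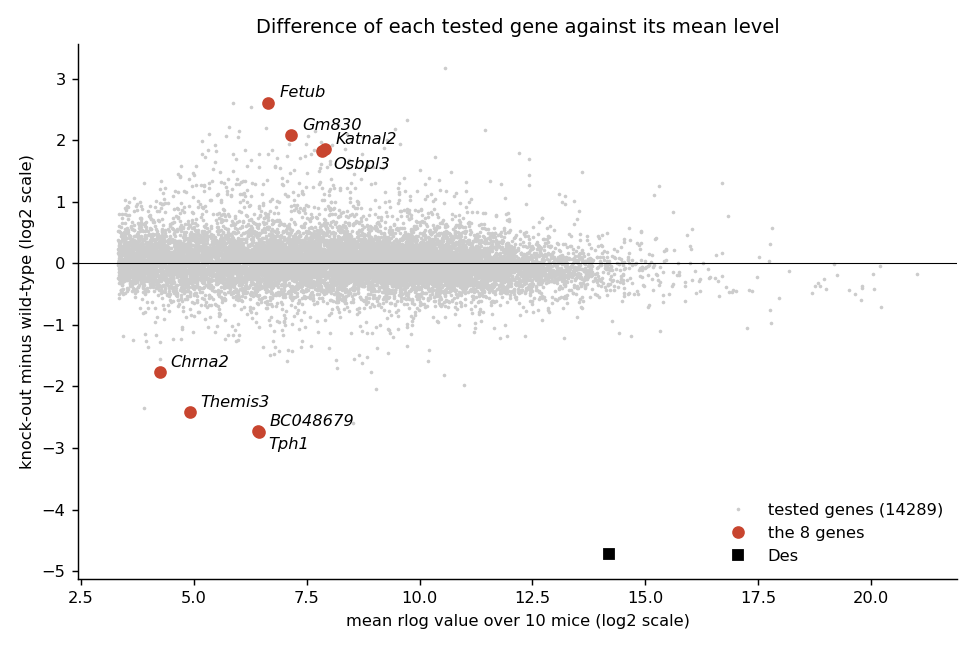
Difference between desmin knock-out and wild-type means (log2 scale) against the mean rlog value over 10 mice, for the 14289 tested genes (grey), the 8 genes (red) and Des (black square). The 4 higher and the 4 lower genes lie at the edges of the cloud, at means between 4.24 for Chrna2 and 7.90 for Katnal2.

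Levels of the 8 genes were compared with each other after division by their exonic length, as rlog value minus log2 of the length in kb. On this scale of level per length BC048679 was the most abundant of the 8 in wild-type muscle with 8.45, followed by Tph1 with 5.15, Katnal2 with 4.95, Themis3 with 4.77, Fetub with 4.37, Gm830 with 4.31, Osbpl3 with 3.75 and Chrna2 with 3.20. In desmin knock-out muscle Fetub came first with 6.99, before Katnal2 with 6.80, Gm830 with 6.39, BC048679 with 5.72 and Osbpl3 with 5.58. Tph1 with 2.43, Themis3 with 2.35 and Chrna2 with 1.43 were far behind. Neighbours in these orders that are closer than about the SD between mice, such as Fetub and Gm830 in wild-type muscle, cannot be ranked. The lengths join all annotated exons of a gene, so a gene that uses a short transcript is set too low.

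Since the levels of the 8 genes differed with the genotype, the sequence before their start sites was inspected. Start sites of 5 of the 8 genes, with 7 windows in all, were found in the RefSeq table for GRCm38.p6, each with 250 bases before and 50 bases after the start, and none for Themis3, Katnal2 and Chrna2. Shown are 120 bases before the outermost start, clear of annotated exons, for both genes with the largest differences in either direction, Fetub and BC048679, in which none of 6 short motifs was found, and for Gm830 and Tph1, in which some were. Each window is written from 5′ to 3′ on the strand of its gene, and capitals mark a match, in either direction, to CAGCTG (the E-box preferred by myogenic factors), TGTGGT (RUNX factors), GGAATG (TEAD factors), TGANTCA (AP-1), TATAAA (the TATA box) or the MEF2 site.
Fetub, chr16:22918214-22918333, forward strand: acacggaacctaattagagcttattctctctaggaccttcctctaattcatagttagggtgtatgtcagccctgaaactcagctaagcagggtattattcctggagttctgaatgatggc
BC048679, chr7:81498331-81498450, reverse strand: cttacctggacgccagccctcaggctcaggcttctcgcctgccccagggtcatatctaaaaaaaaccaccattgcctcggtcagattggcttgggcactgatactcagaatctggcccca
Gm830, chr4:95487530-95487649, reverse strand: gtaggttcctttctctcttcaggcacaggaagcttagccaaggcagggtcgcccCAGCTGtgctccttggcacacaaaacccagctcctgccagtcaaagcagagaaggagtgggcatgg
Tph1, chr7:46672538-46672657, reverse strand: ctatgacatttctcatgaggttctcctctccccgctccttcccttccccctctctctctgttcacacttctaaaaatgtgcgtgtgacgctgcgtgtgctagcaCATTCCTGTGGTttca
The capitals in Gm830 are an E-box of the form CAGCTG, and those in Tph1 are a TEAD match on the opposite strand directly followed by a RUNX match. Over the full windows, CAGCTG was found in 1 of the 7 windows, TGTGGT in 3 (Gm830, Tph1 and Fetub), GGAATG in 1 and TATAAA in 1, in Fetub, and no window held the MEF2 or AP-1 motif. Among all 32851 windows of the table the shares were 16.3% for CAGCTG, 16.8% for TGTGGT, 14.7% for GGAATG, 13.6% for TATAAA, 3.69% for the MEF2 and 7.81% for the AP-1 motif. The general E-box CANNTG, which includes CAGCTG, was in 5 of the 7 windows and 72.3% of all windows, and a loose form of the CArG box of serum response factor in 5 of the 7 and 73.3%. A match is a description of letters and does not show that a factor binds there.

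Next it was asked whether other genes of the same families and pathways differed between the genotypes. Their values did not enter the choice of the 8 and were tested, but the lists were drawn up with earlier results of these data known, so the counts are not independent evidence. Across the whole table, 13.7% of the 14289 genes passed an adjusted p of 0.05 (limma, Benjamini-Hochberg), 7.7% with higher and 5.99% with lower values in the knock-out. The 7 lists hold 60 tested genes, of which 10 were higher and 3 lower, or 21.7%, and 4 of the 10 are subunits of the muscle AChR. Without these subunits, 9 of 55 genes (16.4%) passed, a share near that of all tested genes, and the median difference was -0.05, compared with 0.00 for all. Fewer than 10 list genes were higher whichever mouse was left out, from 6 without knock-out mouse 2 to 9 without wild-type mouse 3.

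**Figure D3:**
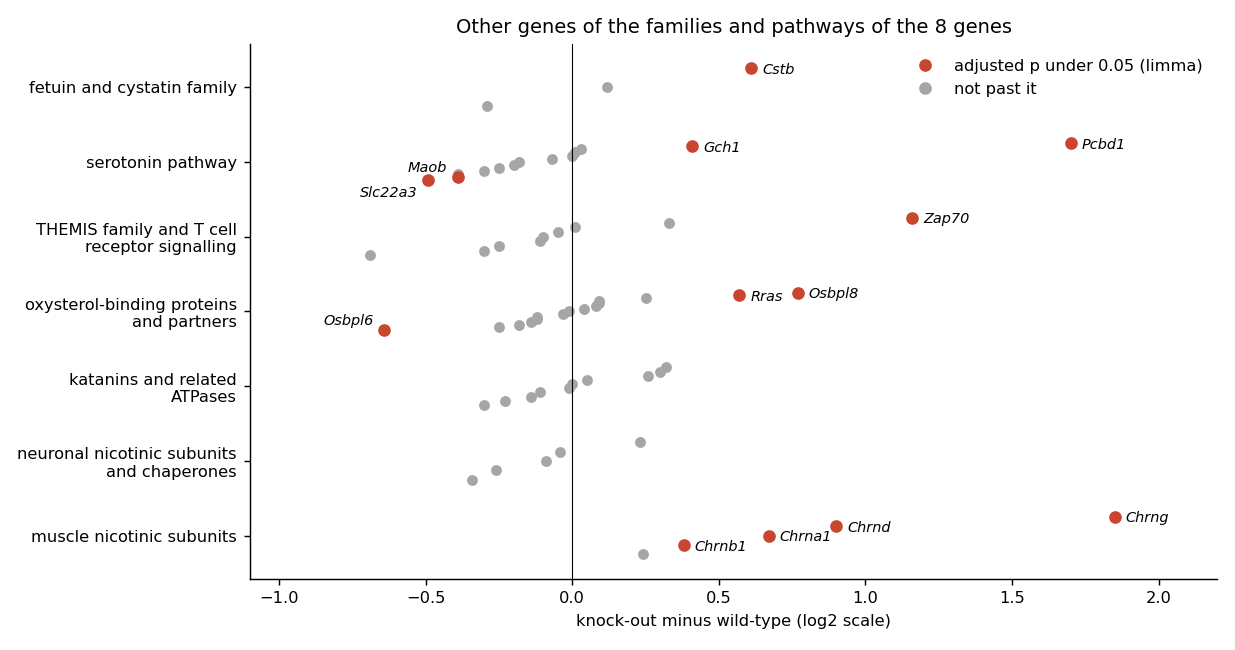
Differences between desmin knock-out and wild-type muscle (log2 scale) for the tested genes of 7 lists, 1 point for each gene. Red points passed at an adjusted p of 0.05 (limma), and grey points did not. Katanins and neuronal AChR subunits hold no red point, and the largest differences belong to Chrng with 1.85 and Pcbd1 with 1.70.

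Serotonin is made from tryptophan by Tph1 or, in neurons, Tph2, and then by Ddc. The hydroxylases need tetrahydrobiopterin, which Gch1, Pts and Spr make and Pcbd1 and Qdpr recycle, and Maoa and Maob break serotonin down. Of 34 genes of this pathway 13 were tested, with 2 higher and 2 lower. Pcbd1 rose from 5.07 ± 0.22 (SD, n = 5) in wild-type to 6.78 ± 0.25 (SD, n = 5) in knock-out muscle, a difference of 1.70 without overlap (standard error 0.15, adjusted p = 5.89e-06, limma). It was thus higher where Tph1, the enzyme that uses the recycled cofactor, was lower. Gch1 was higher by 0.41 (adjusted p = 0.0441, limma), a call that was lost in 15 of 18 alternatives. The other cofactor genes, Pts, Spr and Qdpr, had differences of 0.01, -0.18 and 0.00 and did not pass (adjusted p = 0.963, 0.51 and 0.993, limma). Maob fell by 0.39 (9.31 ± 0.07 against 9.70 ± 0.12, SD, n = 5; adjusted p = 0.00833, limma), with groups that did not overlap. The transporter gene Slc22a3 was lower with a difference of -0.49 (adjusted p = 0.0433, limma), which did not pass in 10 of 17 alternatives. Ddc had nearly equal means of 4.33 and 4.40 (adjusted p = 0.815, limma), and Tph2 with 2.91 and 3.02 was under the expression limit. Of the serotonin receptors only Htr2a and Htr7 were tested, with differences of -0.20 and -0.25 that did not pass (adjusted p = 0.368 and 0.311, limma), and Htr1a, Htr2c, Htr3a, Htr3b and Htr5a were at 0 in all mice.

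Mast cells and enteroendocrine cells are known sites of Tph1, so their markers were read beside it. Of 10 mast cell markers 6 were tested, and 3 of them were lower in desmin knock-out muscle and none higher, beside 5.99% lower among all tested genes. These were Mcpt4 with a difference of -0.91 (adjusted p = 0.00975, limma), Tpsb2 with -0.85 (adjusted p = 0.043, limma) and Cpa3 with -0.68 (adjusted p = 0.0255, limma), genes of mast cell proteases. The other tested markers, Cma1, Hdc and Kit, had differences of -0.49, -0.26 and -0.06 and did not pass (adjusted p = 0.109, 0.336 and 0.827, limma). Among the untested ones, Tpsab1, Fcer1a and Ms4a2 had -0.26, -0.03 and 0.04, and Mcpt1 was at 0 in all mice. The log2 of the summed level of the list lay between 6.83 and 7.55 in knock-out and between 7.44 and 8.18 in wild-type mice, and the groups overlapped. The number of lower markers was 1 without knock-out mouse 1, 3, 4 or 5 or wild-type mouse 1, and 5 without knock-out mouse 2. Markers of enteroendocrine cells were low, with 1 of 6 tested and Neurod1 at 0. Their summed level was 4.58 to 4.80 in knock-out and 4.81 to 4.91 in wild-type mice, so that the groups only just did not overlap. The tested marker, Slc18a1, had a difference of -0.39 and did not pass (adjusted p = 0.0985, limma). Chga was lower by -0.18, whereas Chgb, Tac1 and Lmx1a were higher by 0.19, 0.22 and 0.05. The part of either cell type in the difference of Tph1 was not tested. In whole muscle, fewer cells of a type and less RNA per cell cannot be told apart.

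**Figure D4:**
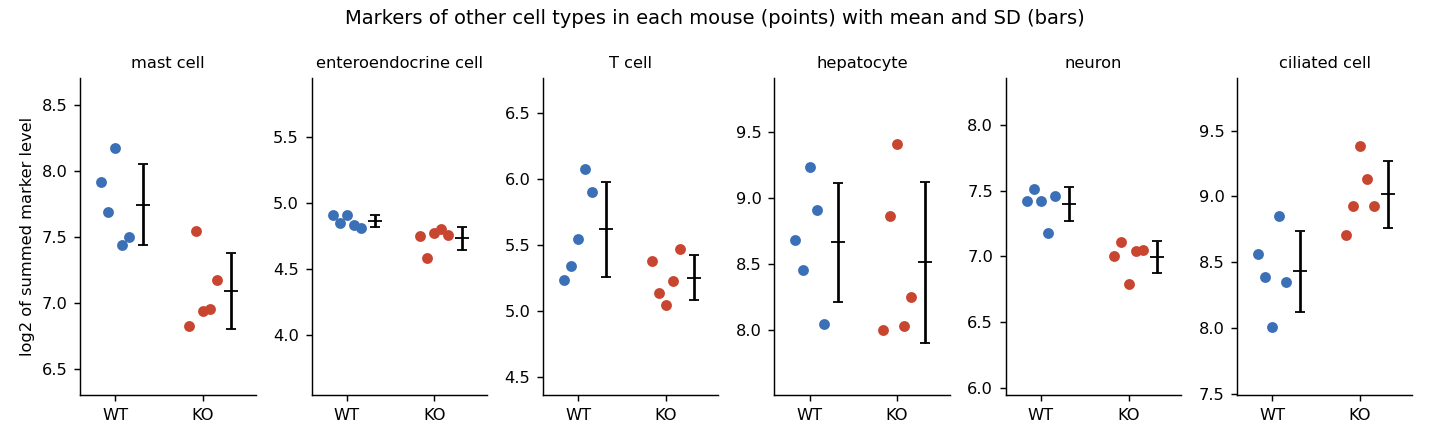
Log2 of the summed level of markers of 6 other cell types in each mouse, with the genotypes (WT, wild-type; KO, desmin knock-out) on the horizontal axis, points for mice, bars for mean and SD of 5 mice, and the same span of log2 units in each panel. The sums of the enteroendocrine and neuron lists sit lower in every knock-out mouse than in any wild-type mouse. The enteroendocrine groups are only just apart, at 4.80 and 4.81, the neuron sum rests on Stmn2, and single genes of both lists differ in either direction. The mast cell sum sits lower and the ciliated cell sum higher in most knock-out mice.

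Fetub belongs to the cystatin superfamily and lies in a gene cluster with Ahsg, Hrg, Kng2 and Kng1, which are likewise known from liver. Hrg and Kng1 were at 0 in all 10 mice, and Ahsg, with means of 0.52 in knock-out and 0.49 in wild-type muscle, and Kng2, with 1.09 and 0.91, were far below the expression limit. Of 21 genes of the family list, 3 were tested. Cstb, the cystatin B gene, rose from 8.52 ± 0.22 to 9.13 ± 0.09 (SD, n = 5), a difference of 0.61 without overlap (adjusted p = 0.00241, limma). Cst3 and Cst6 had differences of -0.29 and 0.12 (adjusted p = 0.284 and 0.675, limma). Astl, the gene of the egg protease that fetuin-B inhibits, was at -0.90 in knock-out and -0.94 in wild-type mice. Of the 10 hepatocyte markers only Cyp2e1 was tested, with 8.46 in knock-out and 8.62 in wild-type muscle (adjusted p = 0.748, limma). Ttr, Fga, Fgb and Fgg were at 0 in all mice, Alb had 1.86 and 1.76, and the summed level of the list, which rests on Cyp2e1, spanned 8.0 to 9.41 in knock-out and 8.04 to 9.23 in wild-type mice.

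The neuronal AChR is built from the subunits encoded by Chrna2 to Chrna7, Chrna9, Chrna10 and Chrnb2 to Chrnb4. Chrnb2 was the only other subunit gene whose mean over all 10 mice passed the expression limit, with 4.52 ± 0.17 in knock-out and 4.28 ± 0.23 in wild-type muscle (SD, n = 5; difference 0.23, adjusted p = 0.285, limma). Chrna10 came close, with means of 3.04 in knock-out and 3.48 in wild-type muscle, and was not tested. Chrna5 and Chrnb4 were at 0 in all mice. With the receptor chaperones and Ly6 proteins, 5 of 19 genes of the list were tested and none passed in either direction by limma. Ly6e was the only one with an unadjusted p under 0.05 (difference -0.34, adjusted p = 0.145, limma). The muscle subunits moved the other way from Chrna2, with 4 of 5 higher, namely Chrna1 by 0.67, Chrnb1 by 0.38, Chrnd by 0.90 and Chrng by 1.85 (adjusted p = 0.00937, 0.0436, 0.00588 and 9.66e-05, limma), and the call of Chrnb1 was lost in 12 of 18 alternatives. Chrng is also 1 of the 7 higher markers of regenerating fibers named above. Chrne was at 9.54 and 9.30 (adjusted p = 0.18, limma). Of the 12 neuron markers, the defining genes Snap25, Syt1 and Chat were between -2.08 and -0.69 in every mouse and Slc18a3 was at 0. Of the 3 tested, Stmn2 was lower by -0.66 and Prph higher by 0.65 (adjusted p = 0.00193 and 0.0112, limma). The summed level of the list, which rests on Stmn2, was 6.79 to 7.11 in knock-out and 7.18 to 7.51 in wild-type mice, without overlap, and its part in the difference of Chrna2 was not tested.

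For Themis3, the relatives were Themis, which was at -1.75 in both genotypes, and Themis2, with 5.02 ± 0.14 and 5.27 ± 0.24 (SD, n = 5; adjusted p = 0.246, limma). Of 19 genes of the THEMIS family and T cell receptor signalling, 9 were tested and 1 passed. Zap70, the kinase that binds the activated receptor, rose from 4.24 ± 0.21 to 5.40 ± 0.30 (SD, n = 5; difference 1.16, adjusted p = 2.25e-04, limma). Next by p were Ptpn11 with a difference of -0.30 and Cd247, the zeta chain of the receptor, with -0.69 (adjusted p = 0.0669 and 0.0698, limma). The list had 1 lower gene in 5 alternatives, among them those without wild-type mouse 1 and without wild-type mouse 2. The T cell genes Cd3d, Cd3e, Cd8a, Cd8b1 and Lck were at most at 0.69 in every mouse. Cd3g, Cd4, Trbc2 and Trac reached at most 1.52, 1.88, 2.04 and 2.44, also under the expression limit. Trac and Trbc2 had differences of 0.21 and 0.29, and of the untested markers only Cd3d was lower, by -0.04. The summed level of the T cell markers, which rests on Cd247, was 5.05 to 5.47 in knock-out and 5.24 to 6.08 in wild-type mice, and its part in the difference of Themis3 was not tested.

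All 15 genes of the oxysterol-binding protein list were tested, and 2 were higher and 1 lower. Osbpl6, of the same subfamily as Osbpl3, fell from 11.12 ± 0.13 to 10.49 ± 0.06 (SD, n = 5), a difference of -0.64 in the direction opposite to Osbpl3 and without overlap (standard error 0.09, adjusted p = 2.37e-04, limma). Osbpl8 was higher by 0.77 (adjusted p = 0.0425, limma), a call that was lost in 7 of 18 alternatives. Rras encodes the small GTPase R-Ras, which is known as a partner of the Osbpl3 protein. It was higher by 0.57 (10.24 ± 0.14 against 9.67 ± 0.35, SD, n = 5; adjusted p = 0.0209, limma) and lost the call in 3 of 18 alternatives, among them those without knock-out mouse 2 and without wild-type mouse 2. Vapa and Vapb, which anchor these proteins at the endoplasmic reticulum, had differences of 0.09 and -0.12 (adjusted p = 0.673 and 0.627, limma).

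The list for Katnal2 holds katanins, other microtubule-severing ATPases and the related ATPases Vps4a and Vps4b, which act on ESCRT filaments and not on microtubules. None of the 10 tested genes passed, and 3 had an unadjusted p under 0.05 (limma). The catalytic katanin subunits Katna1 and Katnal1 had differences of 0.05 and -0.01 (adjusted p = 0.753 and 0.955, limma). The smallest p values were those of Vps4b and Katnbl1 (differences 0.26 and 0.32, adjusted p = 0.124 and 0.126, limma). Katnal2 and relatives are abundant in cells with cilia or flagella. Of the 9 markers of ciliated cells 4 were tested, and Tekt1, a tektin of the ciliary axoneme, was higher with a difference of 0.81 (adjusted p = 0.0146, limma). The other tested ones did not pass. Rsph1, Ccdc39 and Dnai1 had differences of -0.01, -0.04 and -0.16 (adjusted p = 0.975, 0.884 and 0.528, limma). Dnah5, Dnah9 and Spag6l were below -1 in all mice. The summed level of the list, which rests on Tekt1, was 8.71 to 9.38 in knock-out and 8.01 to 8.85 in wild-type mice, and its part in the difference of Katnal2 was not tested.

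Finally, the genes around each of the 8 were examined, since their position was not used for the choice. Within 250 kb there were 42 tested genes, of which 6 had higher and 4 lower levels in the knock-out, or 23.8% beside 13.7% of all tested genes. The share was 22.7% of 22 genes within 100 kb and 18.7% of 134 genes within 1 Mb, and the median difference within 250 kb was -0.07. Of the 10 changed neighbours 5 had the direction of their member of the set and 5 the opposite one.

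**Figure D5:**
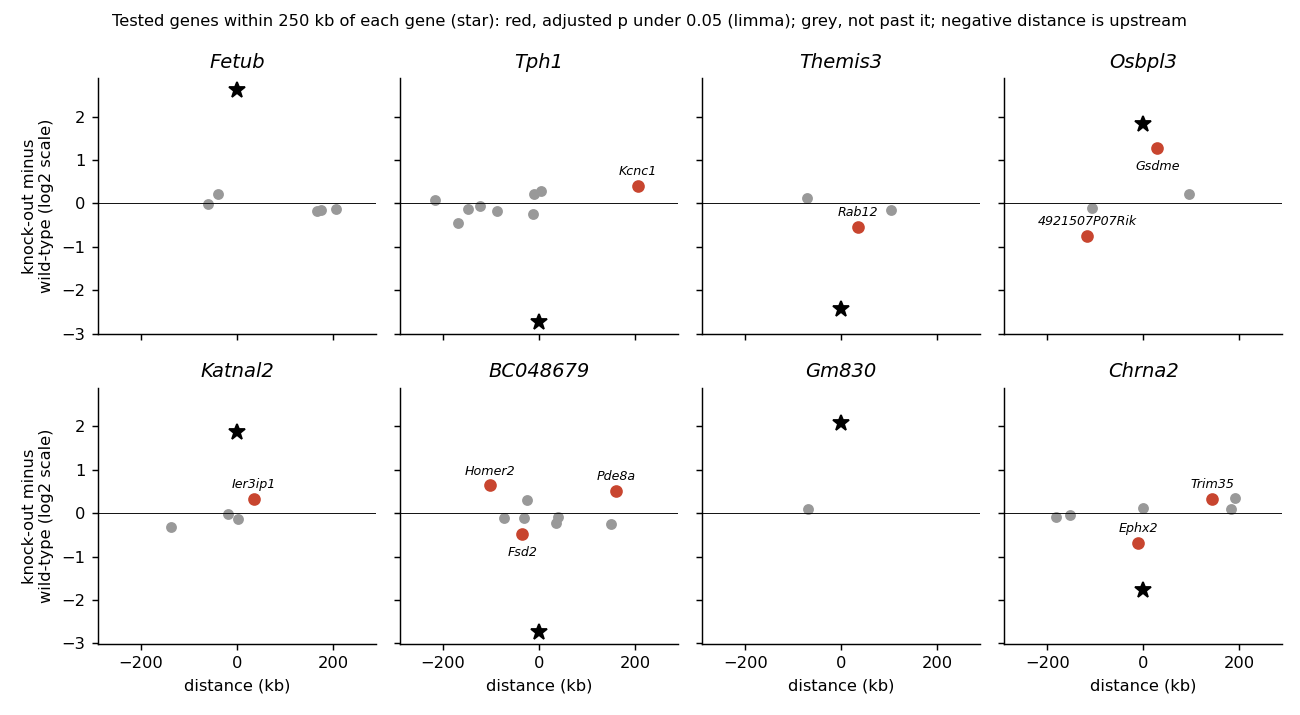
Tested genes within 250 kb of each of the 8 genes, with the distance in kb along the direction of transcription on the horizontal axis and the difference between desmin knock-out and wild-type muscle (log2 scale) on the vertical axis. Stars are the 8 genes, red points have an adjusted p under 0.05 (limma), and no neighbour reaches the size of the difference of its star.

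The largest change among the neighbours was next to Osbpl3. Gsdme, which encodes the pore-forming protein gasdermin E, lies 29.5 kb downstream and rose from 4.58 ± 0.31 to 5.86 ± 0.21 (SD, n = 5; difference 1.27, standard error 0.16, adjusted p = 1.25e-04, limma). On the other side of Osbpl3, 4921507P07Rik at 117.0 kb was lower by -0.74 (adjusted p = 0.00497, limma). Ephx2, the soluble epoxide hydrolase gene 10.5 kb upstream of Chrna2, fell from a wild-type mean of 10.68 ± 0.40 (SD, n = 5; difference -0.68, adjusted p = 0.0116, limma). Ptk2b, only 0.309 kb downstream of Chrna2, had 4.71 and 4.59 (adjusted p = 0.596, limma). Rab12 was lower by -0.54 at 34.8 kb downstream of Themis3 (adjusted p = 0.00489, limma).

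Around BC048679, Fsd2 at 35.0 kb was lower by -0.48 (adjusted p = 0.0169, limma), whereas Homer2 at 102.0 kb and Pde8a at 160.0 kb were higher by 0.64 and 0.52 (adjusted p = 0.0128 and 0.015, limma). Its nearest tested gene, 2900076A07Rik, had a difference of 0.31 (adjusted p = 0.162, limma). Close to Tph1, the nearest gene Sergef, 4.83 kb downstream, had a difference of 0.29 (adjusted p = 0.166, limma), and Kcnc1, a potassium channel gene at 206.0 kb, was higher by 0.41 (adjusted p = 0.00909, limma). Hdhd2, 1.84 kb downstream of Katnal2, had a difference of -0.13 (adjusted p = 0.365, limma). Ier3ip1 near Katnal2 and Trim35 near Chrna2 were each higher by 0.33 (adjusted p = 0.0477 and 0.0474, limma), calls that were each lost in 12 of 18 alternatives. No neighbour of Fetub or Gm830 passed by limma, and 1 of the 5 tested near Fetub and 0 of the 1 near Gm830 had an unadjusted p under 0.05. The nearest ones were Dnajb11, 38.7 kb upstream of Fetub with a difference of 0.21 (adjusted p = 0.156, limma), and Fggy, 70.1 kb upstream of Gm830 with 0.10 (adjusted p = 0.615, limma).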

How the data were processed

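Gastrocnemius RNA of 5 desmin knock-out and 5 wild-type mice was sequenced from stranded mRNA libraries. The submitters' processing notes name cutadapt 2.5, STAR 2.5.4a, Subread 1.6.1 with featureCounts, DESeq2 and GRCm38. The paper speaks of pooled RNA, but the table has 1 column for each mouse, and each was used as 1 replicate. The authors deposited regularized log values on a log2 scale, shrunken towards the mean of each gene. How this transformation was set, and whether reads were counted by strand, is not given in the sources used here. Names and positions came from GENCODE M21 (GRCm38).

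Testing covered genes whose mean reached log2(10) and used limma 3.58.1 under R 4.3.3 (lmFit, eBayes with a trend, two-sided, Benjamini-Hochberg adjustment over 14289 genes), which was tested on simulated data. No test was made of the 8 genes, which were selected by these values. Named are the 8 genes, list and neighbouring genes with an adjusted p under 0.05, those with the smallest p in each list, the nearest tested gene to each of the 8, and the 2 genes whose values followed each of them most closely. Other genes stand as background or as markers. The 8 genes and the lists were chosen with earlier results of these data known. Alternatives were other expression limits, scalings, prior variance, sample weights, a replicate block, the Y-linked level as covariate, each mouse left out, an adjusted p under 0.01, group medians and other windows. Their use on marker lists was added after the values were seen.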

Additional observations from a re-analysis of the deposited data

Results flagged for a closer look

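In the 16 groups of 5 mice (8 genes in each genotype), 1 mouse lay far from the other 4 of its group. Knock-out mouse 4 had a Themis3 value of 3.53, below the range of 3.71 to 3.78 of the other knock-out mice. Chance gives about 1 such mouse in 20 groups.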

How the results depend on the processing

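The differences of the 8 genes, whose sign the choice of genes without overlap fixes, were computed under 16 alternatives each and ranged, for example, from 2.5 to 2.80 for Fetub, from -2.91 to -2.63 for Tph1 and from -1.98 to -1.53 for Chrna2. Counts of calls (limma) depended more on the processing. Over all tested genes, 1100 were higher and 856 lower. Sample weights gave 2093 and 2127, an adjusted p under 0.01 gave 623 and 371, and with each mouse left out the counts were 833 to 1335 and 560 to 1161, the lowest without knock-out mouse 4 for the former and without knock-out mouse 5 for the latter. Of the list genes, 10 were higher and 3 lower. The higher count was 15 with sample weights, 6 without an expression limit and 6 at an adjusted p under 0.01, and 6 to 9 with each mouse left out. The lower count was 5 after quantile normalization, 8 with sample weights and 2 to 3 with each mouse left out. Of the neighbours, 6 were higher and 4 lower. These were 10 and 10 with sample weights, 2 and 2 at an adjusted p under 0.01, 2 higher within 100 kb, 13 and 12 within 1 Mb, and 4 to 9 and 4 to 6 with each mouse left out. The cause was not tested, except that a stricter threshold and a narrower window count fewer genes by construction. Mice with the same number did not deviate together from their groups (correlations between -0.219 and 0.0673), so the numbers were not taken as pairs. With the replicate number as a block, 913 genes were higher and 666 lower, with 8 and 3 list genes and 4 and 4 neighbours. Genes with few reads, Chrna2 and Themis3 above all, are those whose rlog differences understate the counts most, and without counts this cannot be measured.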

Other observations

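After removal of the genotype means, each of the 8 genes was set beside the other tested genes over the 10 mice. Given so many genes, high correlations are found by chance, and they are listed without a test. In a gene such as Chrna2, with an SD of 0.66 in wild-type and 0.11 in knock-out mice, r rests mostly on the wild-type mice. How far these values rest on single mice was not examined. Only for Chrna2 with Themis3 and for Katnal2 with Tph1, described last, was r also computed without 2 wild-type mice. The 2 genes most like each were Gm47320 and Rbm12 for Fetub (Pearson r = 0.95 and 0.92), Fgf13 and Ascc3 for Tph1 (0.96 and 0.96), Lipe and Clca4a for Themis3 (0.96 and 0.95), and Trim67 and Trib3 for Osbpl3 (0.90 and 0.90). They were Ddx50 and Rars2 for Katnal2 (0.93 and 0.93), Cntfr and Lamb3 for BC048679 (0.92 and 0.92), Lgi2 and Ccdc8 for Gm830 (0.95 and 0.90), and Dhrs1 and Ptcd2 for Chrna2 (0.98 and 0.98). Of these 16 genes, Cntfr had the largest difference between the genotypes (-1.35, adjusted p = 1.92e-04, limma), and it was lower as BC048679 was.

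Among the 28 pairs of the 8 genes, r over the 10 mice ran from -0.56 to 0.93 with a median of 0.12. The highest belonged to Chrna2 and Themis3 (Spearman rho 0.77), with 0.95 in the 5 wild-type and 0.78 in the 5 knock-out mice. Knock-out mouse 4 was lowest in both genes, with 3.18 in Chrna2 and 3.53 in Themis3, against at least 3.34 and 3.71 in the other knock-out mice. The knock-out r without this mouse was not computed, so it is no separate sign of a relation. Without wild-type mice 3 and 5, which are farthest out in Chrna2, r was 0.47, so that the relation rests largely on them. The next pair, Katnal2 and Tph1, had r = 0.67 and rho = 0.35, and -0.22 without wild-type mice 1 and 4.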
